A study of Mus musculus with 12 samples.

Results

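The genes described here are the chromatin-modifying enzymes and subunits that 5 symbol families bring together. They are the rows of the count table whose symbol starts with SMARC or KDM, or with CHD, HDAC or ARID directly followed by a digit, and whose counts sum to at least 10 over the 12 libraries. Of 26485 gene rows, 66 matched the symbols and 63 had enough counts: 13 SMARC, 10 CHD, 10 ARID, 11 HDAC and 19 KDM genes. The antisense rows KDM4A-AS1 and HDAC11-AS1 had 0 counts and SMARCA5-AS1 had 2, so they are no members. The rule used symbols and total counts, and no comparison between groups, but members were chosen with earlier results of these data known.

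The RNA came from CD4+ T cells of C57BL/6 mice, sorted for CD4 and CD45. The mice had been immunised with an alum adjuvant and then dosed by mouth each day for 7 days with vehicle or with 25 mg/kg of 4EGI-1, a compound that blocks the binding of the cap-binding protein eIF4E to eIF4G. There were 4 groups of 3 libraries: 4E input, OA input, 4E heavy and OA heavy. Input is total mRNA, and heavy is RNA from the part of a sucrose gradient that holds mRNAs with many ribosomes. What 4E and OA stand for is not spelled out in the labels; here 4E is taken for the mice given the inhibitor and OA for those given vehicle. Immunisation and sort were shared by all groups. No label says whether each replicate is another mouse, so the spread behind a p-value is that of these libraries and may be technical.

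DNA in the nucleus is wrapped around histones, and these families help set how tightly it is packed. SMARC and CHD proteins include motor enzymes that use ATP to slide or evict nucleosomes, and ARID1A, ARID1B and ARID2 are subunits that steer the SWI/SNF motor to DNA. HDAC enzymes take acetyl groups off histones and other proteins, and KDM enzymes take methyl groups off histone lysines. In CD4+ T cells, remodelling and the removal of repressive marks take part in opening cytokine genes after activation, and HDAC1, HDAC2 and HDAC3 take part in keeping lineage genes closed.

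Counts in genes summed to between 691449 and 1906657 per library. Levels are counts-per-million (CPM) after TMM scaling, which sets libraries to a common scale from the bulk of their genes. The floor that a count of 0 allows, 3 counts, is 0.781 to 6.82 CPM by library and covers counting error only. The 63 genes held 236540 counts, 1.73% of all counts in genes. OA replicate 1 stood apart in both fractions: RN7SL1, a non-coding RNA that is no member, took 23.3% of its input counts against 58.95% to 66.6% in the other 5 input libraries, and 1.38% of its heavy counts against 5.8% to 11.4% in the other 5 heavy libraries. T cell markers had counts for 8 of 9 genes, with CD3D at 0, and summed to 868 to 1335 CPM in 4E and 945.5 to 1519 CPM in OA libraries. PTPRC, LCK and TCF7 gave most of these sums, with 8791, 5355 and 4831 counts over the 12 libraries. CD4, used for the sort, had 100 counts and CD2 had 45. CD4 was at 0 in every 4E input library, in OA input replicate 2 and in 4E heavy replicate 2. Markers of other cells and of division also had counts, and some of their sums moved with the arms. All 6 stromal markers had counts and summed to 23 to 60.8 CPM in 4E and 59.4 to 568 CPM in OA libraries. Of 6 red cell markers 4 had counts, with HBA1 and HBA2 at 0, and they summed to 17.4 to 181 CPM in 4E and 49.7 to 577 CPM in OA libraries. Myeloid markers (6 of 7 with counts, S100A8 at 0) summed to 13.1 to 48.6 CPM in 4E and 27.3 to 90.6 CPM in OA libraries, and the 5 B cell markers to 41.1 to 124 CPM in 4E and 39.2 to 111 CPM in OA libraries. All 13 division markers had counts and summed to 259 to 353 CPM in 4E and 472 to 607 CPM in OA libraries. Their part in the results below was not tested. In such bulk RNA, fewer cells of a type and less RNA per cell cannot be told apart.

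All 5 families were present in these cells. CHD genes held 94128 counts, KDM genes 72852, ARID genes 32880, SMARC genes 27216 and HDAC genes 9464. Of the 63 genes, 55 had at least 10 counts in at least 3 libraries and were tested: 11 SMARC, 10 CHD, 8 ARID, 10 HDAC and 16 KDM. The others were SMARCA1 with 85 counts, SMARCD3 with 15, ARID3A with 18, ARID3C with 24, HDAC11 with 28, KDM4D with 13, KDM4E with 40 and KDM8 with 14. Tested members had a median of 1830 counts over the 12 libraries, against 409 for all 7465 genes tested. Levels are not corrected for gene length, so they are compared between groups and not between genes.

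The first comparison sets 4E against OA within each fraction and asks whether the inhibitor changed the amount of these mRNAs or the amount found on heavy polysomes. No member passed an adjusted p of 0.05 in edgeR's quasi-likelihood test in either fraction, and 0.0% of all genes did in input and 0.0% in heavy. DESeq2 called 0 members as well. At an unadjusted p under 0.05, 7 members stood out in input, 4 higher in 4E, with 4.46% of all genes, and 3 lower, with 6.07%, or 10.5% of all genes in either direction. In heavy RNA 8 members did, where 8.21% of all genes did, and all 8 were higher in 4E, where 3.82% of all genes were. The input count was 1 without 4E input replicate 2 (7.67% of all genes), and 4 without 4E input replicate 1 (10.6%), without 4E input replicate 3 (8.94%) or without OA input replicate 1 (7.09%). Without OA input replicate 3, 6 were higher and 3 lower in input (13.5%). The heavy count was 3 without 4E heavy replicate 2 (4.82% of all genes) or 4E heavy replicate 3 (5.78%). It was 5 without OA heavy replicate 2 (6.17%) and 0 without OA heavy replicate 1 (3.21%). Without OA replicate 1 in both fractions the heavy count was 7, all higher in 4E (5.73% of all genes). In heavy RNA 10 were higher and 1 lower without OA input replicate 1 (11.2%). Without OA heavy replicate 3, 11 were higher and 1 lower (12.1%). With DESeq2 size factors 6 were higher and 1 lower in heavy RNA (8.33%), and the same in the DESeq2 Wald test (7.96%). Among genes with at least 50 counts in 3 libraries, 5 were higher and 1 lower (10.2%). Without composition scaling (no TMM factors) 0 stood out in heavy RNA (3.0%). In input, 0 were then higher and 22 lower, where 31.2% of all genes were lower.

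Member values were more often higher in 4E than in OA, by a gap that varied with the setting. Of the 55 tested, 32 had a log2 change above 0 in input, as 47.0% of all genes had, and the members' median was 0.07 against -0.05 for all genes. In heavy RNA 39 were above 0, as 49.8% of all genes were, and the median was 0.16 against -0.002 for all genes. All genes hold many of lower counts, and the gap depends on which genes and libraries enter. Among genes with at least 50 counts in 3 libraries, the members' median was 0.04 against 0.01 for all genes in input (26 of 49 above 0) and 0.09 against 0.01 in heavy RNA (35 of 49 above 0). With only the groups compared it was 0.02 against -0.01 in input, and without OA replicate 1 in both fractions it was 0.05 against 0.01 in input and 0.11 against 0.01 in heavy RNA. In heavy RNA every 4E library lay above every OA library for 15 members, or 27.3%, where 9.0% of all genes did so. The 15 were SMARCA2, SMARCA4, SMARCB1, SMARCC2, SMARCD1, CHD1L, CHD3, CHD7, ARID4B, ARID5A, HDAC5, KDM1A, KDM2B, KDM5C and KDM6B. In the opposite direction stood 1 member, CHD9, where 8.12% of all genes did so. In input, 7 members (SMARCA2, SMARCE1, CHD3, CHD5, CHD7, KDM5A and KDM6B) lay wholly above OA, with 6.23% of all genes, and 4 (ARID5B, HDAC2, HDAC3 and KDM3A) wholly below, with 7.56% of all genes. SMARCA2, CHD3, CHD7 and KDM6B (4 members) were wholly above OA in both fractions. With DESeq2 size factors 10 members lay wholly above OA in heavy RNA (7.54% of all genes). Without composition scaling, which moves the median of all genes by -0.88 in input and -0.18 in heavy RNA, 6 members did so in heavy RNA (4.42% of all genes) and 0 in input (0.415% of all genes), while 3 lay wholly below in heavy RNA (12.9% of all genes) and 11 in input, the same share as the 20.0% of all genes.

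OA replicate 1 was often the lowest library of its OA group, which lowers the OA mean. It was the lowest OA heavy library for 31 of the 55 members (56.4%), where it was so for 37.6% of all genes. Among the 15 members set apart in heavy RNA it was the lowest OA library for 11 and the highest for 2. Wholly above means above the highest OA library and does not measure the size of a change. The part of OA replicate 1 in these counts was not tested. OA replicate 1 was the lowest OA input library for 28 of the 55 (50.9%), against 32.9% of all genes. Without it in either fraction, 17 members (30.9%) lay wholly above OA in heavy RNA, where 12.8% of all genes did, and 8 (14.5%) in input, where 10.6% did. The fewer libraries a group has, the more often groups do not overlap, and without OA heavy replicate 3 the heavy count was 23, where 17.3% of all genes lay above. In input the count higher was 14 without OA input replicate 3 (12.6% of all genes), 11 without 4E input replicate 1 (11.3%) and 11 without 4E input replicate 3 (11.1%). The count lower in input was near the share of all genes, with 7 members (12.7%) without 4E input replicate 1, where 14.4% of all genes were lower, and 8 (14.5%) without OA input replicate 3, where 13.6% were. In heavy RNA 9 members (16.4%) were lower without 4E heavy replicate 1, as 16.4% of all genes were. That count was 3 without OA heavy replicate 1 (11.5% of all genes), and 2 without 4E heavy replicate 2 (12.6%), OA heavy replicate 2 (12.2%) or OA heavy replicate 3 (15.8%).

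**Figure D1:**
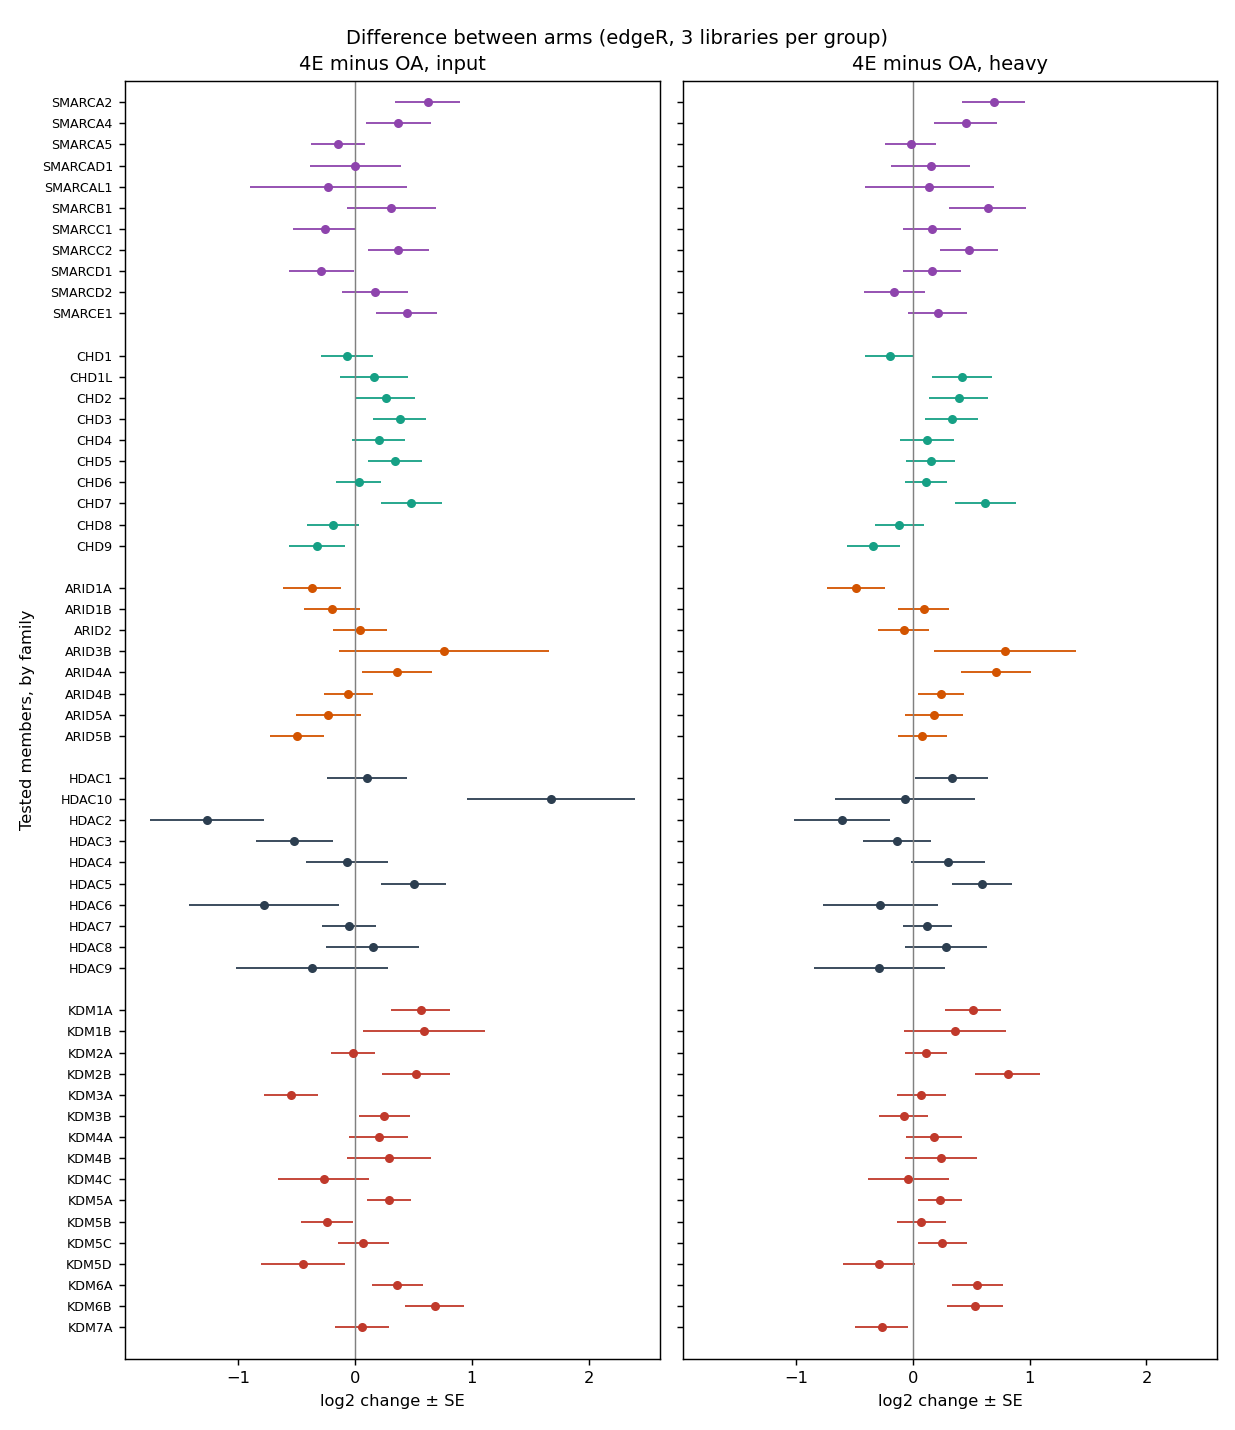
Log2 change of 4E minus OA in input RNA (left) and in heavy polysome RNA (right) for the 55 tested members, grouped and coloured by family; points are edgeR estimates and bars are ± 1 SE, with 3 libraries per group. Most points of the right panel lie above 0, the SMARC, CHD, ARID and KDM medians are between 0.14 and 0.20 there, and the widest bars belong to members with few counts such as HDAC10 and ARID3B.

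The SMARC family holds the motors and core subunits of SWI/SNF, the complex that opens promoters and enhancers, and the ISWI motor SMARCA5. Its median change was 0.17 in input, with 7 of 11 tested members higher in 4E, and 0.16 in heavy RNA, with 9 of 11 higher. SMARCA2, the alternative SWI/SNF motor also called BRM, had 458.5, 632 and 483.5 CPM in 4E input, against 209, 439 and 385.5 CPM in OA input (replicates 1, 2 and 3). In heavy RNA it had 384, 466 and 443 CPM in 4E, against 172, 285 and 347 CPM in OA. The 3 4E libraries lay above the 3 OA libraries in each fraction, and OA replicate 1 was the lowest of its group. The log2 change was 0.62 ± 0.28 in input (SE, edgeR adjusted p = 0.458) and 0.69 ± 0.27 in heavy RNA (adjusted p = 0.569), and 0.34 and 0.42 without OA replicate 1.

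SMARCA4, the main SWI/SNF motor in lymphocytes, had 561, 607 and 565 CPM in 4E input, against 244, 534 and 571 CPM in OA input. The heavy libraries held 484, 507 and 548 CPM in 4E, against 249, 409 and 471 CPM in OA. The groups overlapped in input through OA replicate 3 and did not in heavy RNA, and without OA replicate 1 the log2 changes were 0.05 and 0.20, against 0.37 ± 0.28 and 0.45 ± 0.27 with it. SMARCA5, which spaces nucleosomes, gave no direction: it had 413, 266 and 373 CPM in 4E input, against 484, 332 and 343 CPM in OA input. Its heavy levels were 352, 347.5 and 299 CPM in 4E and 413.5, 276 and 320 CPM in OA. Its log2 changes, -0.15 ± 0.23 and -0.02 ± 0.22, took the opposite sign without OA replicate 1, at 0.05 and 0.14.

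The SMARC core subunits did not all lean the same way. SMARCC2, a scaffold subunit, had 196, 257 and 219 CPM in 4E input, against 112, 234 and 179 CPM in OA input. Its heavy levels were 169, 216 and 185 CPM in 4E and 105, 137 and 168 CPM in OA, which did not overlap. SMARCC1, the scaffold it is exchanged with, had 111, 105 and 110 CPM in 4E input, against 91.5, 181 and 123 CPM in OA input, and the groups overlapped in both fractions. SMARCB1, the core subunit lost in human rhabdoid tumours, had a log2 difference of 0.64 ± 0.33 in heavy RNA (adjusted p = 0.632), at 37.35, 36.7 and 47.5 CPM in 4E against 30.2, 17.95 and 29 CPM in OA. SMARCE1, a DNA-binding subunit, was apart in input and overlapped in heavy RNA. Its input levels were 82.6, 86.4 and 94.9 CPM in 4E and 80, 50.5 and 59.7 CPM in OA, a log2 change of 0.44 ± 0.26 (adjusted p = 0.572).

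The CHD family is named for the chromodomains of most of its remodellers, which read methylated histones and which CHD1L lacks, and CHD3, CHD4 and CHD5 are the motors of the repressive NuRD complex. The family median was 0.18 in input (7 of 10 higher in 4E) and 0.14 in heavy RNA (7 of 10 higher). CHD7, a remodeller at enhancers that is mutated in human CHARGE syndrome, had 1217, 1316 and 1157 CPM in 4E input, against 563, 1071 and 1017 CPM in OA input. The heavy values were 1142, 1253 and 1252 CPM in 4E and 527, 875 and 968 CPM in OA. The arms did not overlap in either fraction and OA replicate 1 was far below the other OA libraries. The log2 changes were 0.48 ± 0.26 (adjusted p = 0.534) and 0.62 ± 0.26 (adjusted p = 0.569), and 0.23 and 0.37 without OA replicate 1.

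The NuRD motors showed smaller differences. CHD3 had 1291, 1282 and 1192 CPM in 4E input, against 702, 1058 and 1148 CPM in OA input, and 1294, 1188 and 1202 CPM in 4E heavy, against 700, 1154 and 1073 CPM in OA heavy. These arms were also apart in both fractions, by 0.38 ± 0.23 and 0.33 ± 0.23 on the log2 scale, and by 0.18 and 0.12 without OA replicate 1. CHD4, a NuRD motor that supports CD4 expression in mouse thymocytes, had 1321, 1441 and 1446 CPM in 4E input, against 916, 1247 and 1499 CPM in OA input. Its heavy levels were 1249, 1217 and 1441 CPM in 4E and 903.5, 1299 and 1386 CPM in OA. Both pairs of groups overlapped, and the heavy change of 0.12 ± 0.23 became -0.07 without OA replicate 1.

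CHD2, a remodeller that travels with transcribing polymerase and the member with most counts (26170), had 2156, 1916 and 1932 CPM in 4E input, against 1280, 1805 and 1945 CPM in OA input. On heavy polysomes it had 2032, 1925 and 1866 CPM in 4E, against 1009, 1443 and 1990 CPM in OA. The arms overlapped through OA replicate 3 in both fractions. CHD9 was the 1 member wholly lower in 4E heavy, at 71, 70.9 and 64.5 CPM against 99.7, 72.3 and 88.3 CPM in OA heavy, with a log2 change of -0.34 ± 0.23 (edgeR adjusted p = 0.682). CHD1L, which is recruited to DNA breaks, and CHD5 had log2 differences of 0.42 ± 0.26 in heavy RNA and 0.34 ± 0.23 in input.

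**Figure D2:**
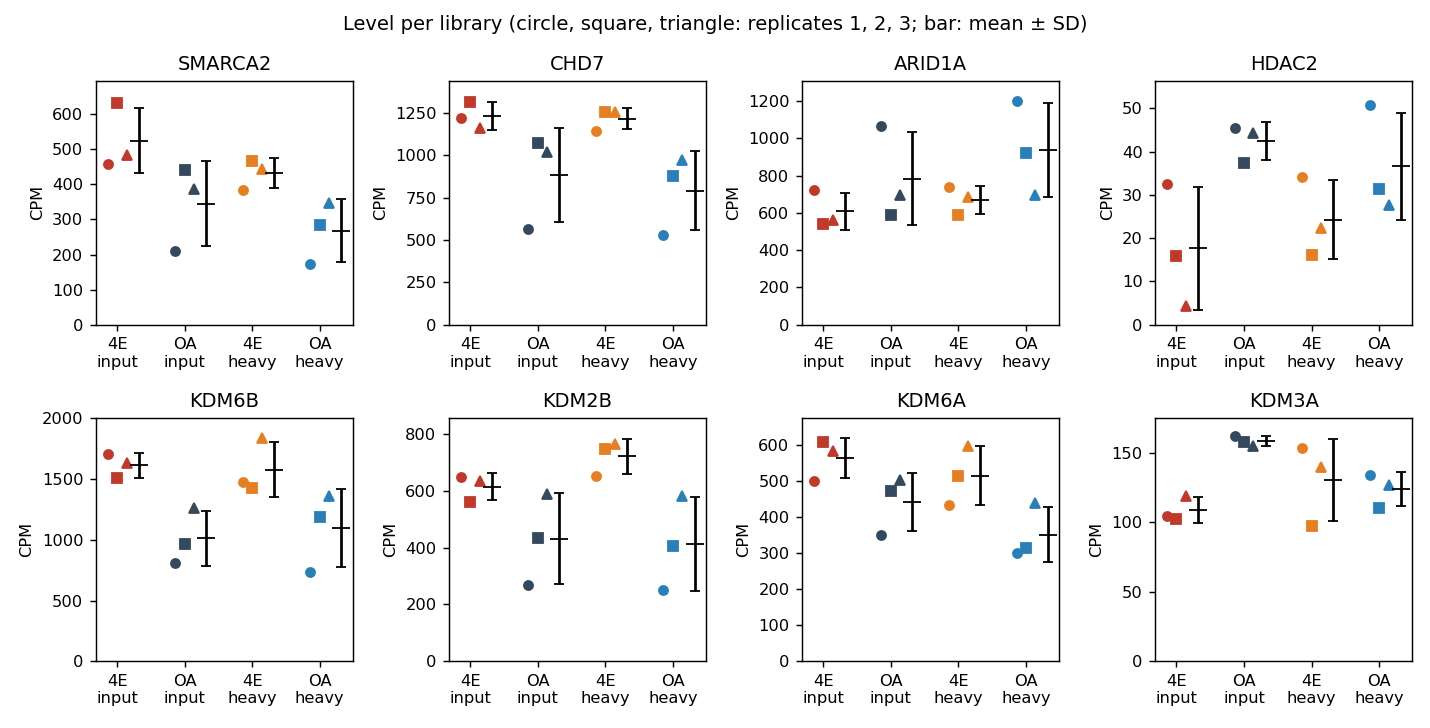
Level of 8 members in every library, in CPM on a vertical axis that starts at 0, by group, with circle, square and triangle for replicates 1, 2 and 3 and a bar for the mean ± SD of 3 libraries. In SMARCA2, CHD7, KDM6B and KDM2B the OA circle is the lowest point of each OA group, in ARID1A it is the highest, and HDAC2 and KDM3A are lower in all 4E input libraries than in all OA input libraries.

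The ARID family is mixed in role: ARID1A and ARID1B are exclusive alternatives in the BAF form of SWI/SNF, ARID2 marks its PBAF form, ARID4A and ARID4B bind the SIN3 corepressor, and ARID3 and ARID5 proteins bind DNA or RNA outside SWI/SNF. The median was -0.13 in input (3 of 8 higher in 4E) and 0.14 in heavy RNA (6 of 8 higher). ARID1A, often lost in human tumours, had 724, 539 and 561 CPM in 4E input, against 1067, 591 and 696 CPM in OA input. In heavy RNA it had 739, 590 and 684 CPM in 4E, against 1199, 922.5 and 695 CPM in OA. The groups overlapped in both fractions, and here OA replicate 1 was the highest library. The log2 changes were -0.37 ± 0.25 (adjusted p = 0.627) and -0.49 ± 0.25 (adjusted p = 0.621), and -0.09 and -0.30 without OA replicate 1.

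ARID4A leaned the other way. It had 485, 477 and 437 CPM in 4E input, against 204, 447.5 and 447 CPM in OA input. The heavy libraries held 438, 481 and 373.5 CPM in 4E, against 163.5, 234 and 394 CPM in OA. OA replicate 3 reached into the range of the 4E libraries in both fractions, and OA replicate 2 did in input. The heavy change was 0.71 ± 0.30 (edgeR adjusted p = 0.569) and was 0.44 without OA replicate 1. ARID5B, a partner of the demethylase PHF2, had 67.4, 84.1 and 90.5 CPM in 4E input, against 133, 102.5 and 104 CPM in OA input. Its heavy levels, 101.5, 102 and 115 CPM in 4E and 107, 108 and 84.4 CPM in OA, overlapped. The 4E input libraries lay below all OA input libraries, at a log2 change of -0.50 ± 0.23 (edgeR adjusted p = 0.468).

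ARID5A, which binds and stabilises inflammatory mRNAs, had close values in 4E heavy, 77.2, 76.5 and 75.2 CPM, against 72.1, 69.5 and 59.3 CPM in OA heavy. The arms did not overlap, and the change was 0.18 ± 0.25 (adjusted p = 0.839). ARID1B and ARID2 overlapped between the arms in both fractions.

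The HDAC family had no common direction. Its median was -0.06 in input (4 of 10 higher in 4E) and 0.02 in heavy RNA (5 of 10 higher), and the heavy median was -0.02 with DESeq2 size factors and -0.14 without OA replicate 1. HDAC1 and HDAC2 sit in the NuRD, SIN3 and CoREST complexes. HDAC2 had 32.6, 15.9 and 4.42 CPM in 4E input, against 45.6, 37.4 and 44.4 CPM in OA input. These levels came from 15, 7 and 2 counts in 4E and 115, 23 and 26 counts in OA. The 4E input libraries were all lower and spread widely, and the third lay under its floor. In heavy RNA HDAC2 had 34.2, 16.2 and 22.4 CPM in 4E, against 50.8, 31.4 and 27.7 CPM in OA, which overlapped. The log2 change was -1.27 ± 0.49 in input (adjusted p = 0.399), the lowest of all 55 members, and -0.61 ± 0.41 in heavy RNA (adjusted p = 0.683). Without OA replicate 1 the input change was -1.21, and over all other settings tried it lay between -2.07 and -0.81.

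HDAC1, the close copy of HDAC2 in the same complexes, had 80.4, 61.4 and 26.5 CPM in 4E input, against 55.9, 40.7 and 59.7 CPM in OA input. Its heavy levels were 81.5, 56 and 51 CPM in 4E and 51.8, 51.6 and 46.4 CPM in OA, and both pairs overlapped. HDAC3, the enzyme of the NCoR corepressor, had 39.1, 25 and 33.1 CPM in 4E input, against 45.2, 55.3 and 39.2 CPM in OA input. That gap was -0.52 ± 0.33 on the log2 scale (adjusted p = 0.607), and HDAC3 overlapped in heavy RNA.

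The class IIa enzymes shuttle between cytoplasm and nucleus with T cell receptor signals. HDAC5 had 245.5, 198 and 245 CPM in 4E input, against 98.65, 156 and 242 CPM in OA input. The heavy values were 227, 241 and 278 CPM in 4E and 127, 187 and 183 CPM in OA. Only the heavy groups were apart, with a log2 change of 0.59 ± 0.26 (edgeR adjusted p = 0.578) that was 0.40 without OA replicate 1. HDAC4 had 63, 97.75 and 143.5 CPM in 4E input, against 84, 70 and 171 CPM in OA input. It had 121, 149 and 126 CPM in 4E heavy, against 71.9, 127 and 123 CPM in OA heavy. Its input change of -0.07 ± 0.35 took the opposite sign in several settings. HDAC7, prominent in thymocytes, had 84.75, 72.75 and 72.9 CPM in 4E input, against 83.6, 70 and 83.6 CPM in OA input, and overlapped in heavy RNA too.

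HDAC10, which deacetylates polyamines, was low and scattered. It had 32.6, 29.55 and 13.25 CPM in 4E input, against 3.57, 14.65 and 8.53 CPM in OA input, and 24.9, 4.35 and 14.3 CPM in 4E heavy, against 7.55, 16.3 and 23.2 CPM in OA heavy. The arms overlapped in both fractions. Its input change of 1.68 ± 0.72 (edgeR adjusted p = 0.43) was the highest of all 55 members. That change rests on 34 counts in 4E input and 23 in OA input. The change was 1.09 when OA input replicate 1 was left out and 2.28 when replicate 2 of that group was.

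The KDM family is the largest here and erases methyl marks of opposite meaning, so its members are given by mark. The family median was 0.23 in input (11 of 16 higher in 4E) and 0.20 in heavy RNA (12 of 16 higher). KDM6B, also called JMJD3, removes the repressive Polycomb mark and is induced by activation in T cells. It had 1710, 1507 and 1629 CPM in 4E input, against 811, 967 and 1259 CPM in OA input. On heavy polysomes it had 1475, 1426 and 1837 CPM in 4E, against 738, 1187 and 1363 CPM in OA. All 4E libraries were above all OA libraries of their fraction, and OA replicate 1 was the lowest in both. The log2 change was 0.68 ± 0.25 in input (adjusted p = 0.383, the smallest of the 55 members) and 0.53 ± 0.24 in heavy RNA (adjusted p = 0.593), and 0.53 and 0.28 without OA replicate 1.

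KDM6A, the X-linked enzyme for the same mark, had 500, 607 and 583 CPM in 4E input, against 350, 472 and 501.5 CPM in OA input. In heavy RNA it had 434, 514 and 596.5 CPM in 4E, against 299, 315 and 439 CPM in OA. In each fraction 1 OA library, replicate 3, reached above the lowest 4E library. The heavy change was 0.55 ± 0.22 (edgeR adjusted p = 0.569), and 0.43 without OA replicate 1.

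KDM2B, which recruits Polycomb complexes to unmethylated CpG islands, had 647.5, 559 and 634 CPM in 4E input, against 269, 434.5 and 588.5 CPM in OA input. The heavy libraries held 650.5, 747 and 763 CPM in 4E, against 252, 404 and 582 CPM in OA. The heavy groups did not overlap and the input groups did. The heavy change of 0.81 ± 0.28 (edgeR adjusted p = 0.569) was the highest of the 55 members, and was 0.52 without OA replicate 1. Its relative KDM2A was level, at 293, 309 and 238 CPM in 4E input against 275, 309 and 268 CPM in OA input, and at 324, 268 and 291 CPM in 4E heavy against 276, 263 and 276 CPM in OA heavy.

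KDM3A, which removes a repressive mark and responds to low oxygen, ran against the family in input. It had 104, 102 and 119 CPM in 4E input, against 162, 158 and 155 CPM in OA input. The heavy values were 154, 97 and 140 CPM in 4E and 134, 110.5 and 127 CPM in OA. The input groups were apart by -0.55 ± 0.23 on the log2 scale (adjusted p = 0.42), and this was -0.54 without OA replicate 1. The heavy groups overlapped.

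Among erasers of the promoter-activating mark, KDM5A had 721, 723 and 848 CPM in 4E input, against 602, 664 and 612 CPM in OA input. It had 752, 666 and 613 CPM in 4E heavy, against 490, 573 and 671 CPM in OA heavy. Only the input groups were apart, at 0.29 ± 0.19 (edgeR adjusted p = 0.628). KDM1A, the flavin-dependent enzyme of CoREST, had 137, 184 and 166 CPM in 4E input, against 88.35, 107 and 138 CPM in OA input, and 121, 128 and 167.5 CPM in 4E heavy, against 75.5, 101 and 118 CPM in OA heavy. Its changes were 0.56 ± 0.25 and 0.51 ± 0.24 (edgeR adjusted p = 0.445 and 0.594), and 0.39 and 0.31 without OA replicate 1. KDM5C was apart in heavy RNA only, at 486, 444.5 and 438 CPM in 4E against 294, 431 and 423 CPM in OA, and its change of 0.25 ± 0.21 was 0.07 without OA replicate 1. KDM5C and KDM5D are X- and Y-linked copies, and KDM4D and KDM4E are near copies of each other, so the split of reads within these pairs is uncertain.

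The interaction asks whether the difference between arms in heavy RNA goes beyond that in input, which is the measure of a change in polysome association. No member passed an adjusted p of 0.05 in edgeR's quasi-likelihood test, where 0.0% of all genes did, DESeq2 called 0, and 0 members had an unadjusted p under 0.05 (0 to 1 with 1 library left out), where 2.13% of all genes did. With arm and replicate number as a block, same-numbered libraries of an arm are taken as paired. In that fit 2 members were higher and 1 lower at an unadjusted p under 0.05, where 2.53% of all genes were higher and 2.13% lower. It called 0 members and 10 of all genes. Of the 55 members 37 were above 0, as 54.2% of all genes were, with a median of 0.13 against 0.05 for all genes. ARID genes had a median of 0.29 (6 of 8 above 0) and HDAC genes 0.20 (9 of 10 above 0, with HDAC10 below), while the medians were 0.13 for SMARC, 0.05 for KDM and 0.03 for CHD genes. The 3 members with the smallest p were KDM3A, at 0.61 ± 0.31, HDAC10, at -1.75 ± 0.94, and ARID5B, at 0.58 ± 0.32, each with an edgeR adjusted p of 0.9996. For KDM3A and ARID5B the 4E libraries were below the OA libraries in input, as given above, and the heavy means were close. KDM3A averaged 130 ± 29.6 CPM in 4E heavy and 124 ± 12.1 CPM in OA heavy, and ARID5B 106 ± 7.47 CPM in 4E heavy and 99.8 ± 13.3 CPM in OA heavy (SD, n = 3 each).

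The other comparison sets heavy polysome RNA against input within an arm. It describes how strongly an mRNA is represented on heavy polysomes relative to the other mRNAs of the library. No member passed the adjusted p of 0.05 in edgeR in either arm, and DESeq2 called 0 in both. Of all genes 0.938% passed in the 4E arm and 0.683% in the OA arm, all of them lower in heavy RNA. At an unadjusted p under 0.05 there were 0 members in the 4E arm, where 5.59% of all genes were (0 to 2 members with 1 library left out), and 1 in the OA arm, ARID4B, which was lower, where 2.18% of all genes were and 1.71% were lower. In a further fit same-numbered heavy and input libraries were taken as paired, which their correlations bear out clearly for OA replicate 1 only. With arm and replicate number as a block, the OA count at an unadjusted p under 0.05 was 6, all lower in heavy RNA. There 3.9% of all genes were lower and 2.29% higher, with 0 members called and 1.21% of all genes called. With the replicate number alone as a block the OA count was 1 (3.38% of all genes). Without a block it was 7 lower and 1 higher without OA input replicate 1 (4.91% of all genes lower and 4.89% higher), 3 lower without OA heavy replicate 3 (2.46% of all genes lower) and 4 lower without OA replicate 1 in both fractions (3.48% of all genes lower). It was 0 without OA input replicate 2 or 3, OA heavy replicate 1 or 2, 4E input replicate 1, or 4E heavy replicate 2 or 3, with 1.42% to 3.73% of all genes.

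The SMARC family leaned to lower values on heavy polysomes, a lean that was not its own alone. Of all 55 members 37 were below 0 in the OA arm (median -0.09) and 30 in the 4E arm (median -0.03). Of all genes, 54.0% were above 0 in the 4E arm and 50.7% in the OA arm. All 11 tested SMARC members were below 0 in the OA arm, with a median of -0.25 against 0.01 for all genes, and 8 of 11 were below 0 in the 4E arm, with a median of -0.17 against 0.04. The OA median lay between -0.41 and -0.14 over the settings tried, with that without composition scaling taken relative to the shift of all genes. SMARCC1 had the second smallest p of the OA arm: its levels were 72.1, 110 and 105 CPM in OA heavy, against 91.5, 181 and 123 CPM in OA input. Each OA replicate was lower in heavy RNA than in input, though the groups overlapped, and the log2 change was -0.45 ± 0.25 (edgeR adjusted p = 0.9999). In the 4E arm, SMARCC1 was level at 118, 105 and 95.8 CPM in heavy against 111, 105 and 110 CPM in input. SMARCE1 had 51.7, 60.9 and 69.9 CPM in 4E heavy, against 82.6, 86.4 and 94.9 CPM in 4E input, which did not overlap, and its change was -0.54 ± 0.26 (edgeR adjusted p = 0.895).

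The medians of the other families were -0.04 for CHD, 0.25 for ARID, 0.24 for HDAC and 0.02 for KDM genes in the 4E arm, and -0.11, 0.01, -0.03 and -0.06 for the same families in the OA arm. Below 0 were 8 of 10 CHD, 3 of 8 ARID, 3 of 10 HDAC and 8 of 16 KDM genes in the 4E arm. In the OA arm 7 CHD, 4 ARID, 5 HDAC and 10 KDM genes were below 0. In the 4E arm the ARID and HDAC medians lay about as far above the median of all genes as the SMARC median lay below it, and in the OA arm the 4 medians were nearer to that of all genes than the SMARC median was. The ARID median of the 4E arm was 0.09 without 4E input replicate 2. ARID4B had 247, 270 and 307 CPM in OA heavy, against 313, 457 and 351 CPM in OA input. All OA heavy libraries were below all OA input libraries, at -0.44 ± 0.20 (edgeR adjusted p = 0.9999). KDM7A, which acts on repressive marks, had 197, 149 and 131 CPM in 4E heavy, against 222, 218 and 216 CPM in 4E input. These did not overlap either, at -0.46 ± 0.23 (edgeR adjusted p = 0.902). ARID3B, a DNA-binding factor, had 23, 13 and 19 counts in 4E heavy, against 1, 3 and 3 counts in 4E input, and 19, 25 and 6 counts in OA heavy, against 5, 2 and 3 counts in OA input, too few in input for a fold.

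Heavy libraries lay wholly above input for 8 members in the 4E arm (SMARCD1, ARID3B, ARID5A, ARID5B, HDAC6, HDAC7, KDM2B and KDM5C), with 7.93% of all genes, and wholly below for 4 (SMARCA4, SMARCE1, KDM4A and KDM7A), with 5.79% of all genes. Of the 8, ARID3B and HDAC6 had only 7 and 10 counts in the 4E input libraries together. In the OA arm it was 1 above (KDM3B), with 4.19% of all genes, and 4 below (SMARCAD1, ARID4B, KDM3A and KDM5B), with 3.36% of all genes. Without OA replicate 1 in both fractions the OA arm had 16 members wholly below (29.1%, with 16.8% of all genes), 7 of them SMARC genes, and 5 above (9.09%, with 20.4% of all genes). Leaving out 1 OA library at a time gave 5 to 12 below, with 4.86% to 12.3% of all genes, and 1 to 4 above, with 6.46% to 15.9%. Leaving out 1 4E library at a time gave 6 to 8 below in the 4E arm, with 8.53% to 11.4% of all genes, and 9 to 11 above, with 12% to 16.8%. The list of lower members depends on few libraries, and whether the arms differ is what the interaction tested.

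**Figure D3:**
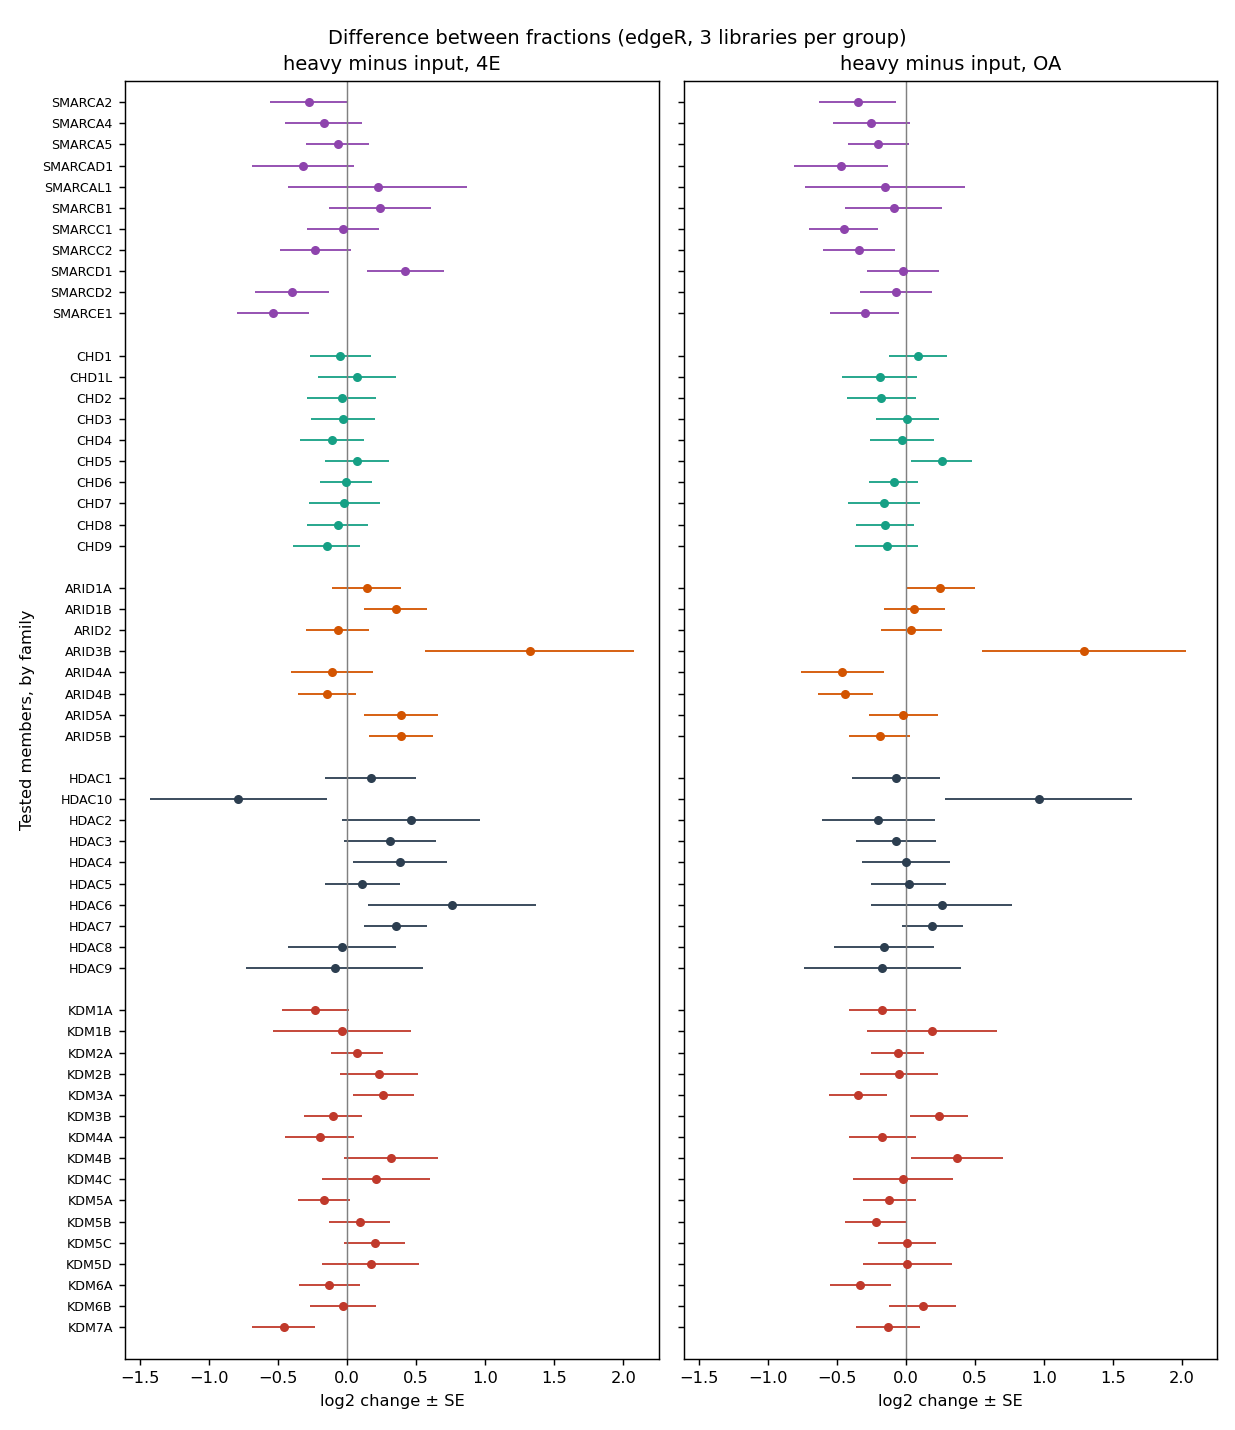
Log2 change of heavy minus input in the 4E arm (left) and the OA arm (right) for the 55 tested members, grouped and coloured by family; points are edgeR estimates and bars are ± 1 SE, with 3 libraries per group. In the right panel all 11 SMARC points lie below 0, with a median of -0.25, and ARID3B and HDAC10, which have few counts, have the widest bars.

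Ratios of counts between related members within a library do not depend on how libraries are scaled, and they bear on exchangeable subunits. For 15 pairs and 4 comparisons, exact two-sided permutation tests over libraries were run, 60 in all, and 3 against 3 libraries cannot give a p under 0.1. The smallest p was 0.1 and the smallest adjusted p was 0.462, so no ratio passed. Each ratio is of counts, which also depend on the lengths of both genes, so only its change between groups is read.

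HDAC2 per HDAC1 was 0.405, 0.259 and 0.167 in 4E input, against 0.816, 0.92 and 0.743 in OA input. In heavy RNA it was 0.42, 0.289 and 0.439 in 4E, against 0.98, 0.609 and 0.597 in OA. The 4E input ratios rest on few counts, 15, 7 and 2 for HDAC2 and 37, 27 and 12 for HDAC1. The 4E libraries were below all OA libraries in both fractions, the only one of the 15 pairs with that pattern. The mean was 0.277 ± 0.120 in 4E input and 0.826 ± 0.089 in OA input, and 0.382 ± 0.082 in 4E heavy and 0.729 ± 0.218 in OA heavy (SD, n = 3 each). The ratio of means was 0.335 in input and 0.525 in heavy RNA, and leaving out 1 library at a time gave 0.258 to 0.402 and 0.481 to 0.634. The pair was picked from the 15 with these values known, so this is a description.

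Other exchangeable subunits were set apart in 1 fraction. SMARCC1 per SMARCC2 was 0.567, 0.407 and 0.505 in 4E input, against 0.819, 0.771 and 0.686 in OA input, and overlapped in heavy RNA. SMARCA2 per SMARCA4, the ratio of the alternative motors, was 0.794, 0.919 and 0.809 in 4E heavy, against 0.692, 0.696 and 0.737 in OA heavy, and overlapped in input. ARID1B per ARID1A was 0.265, 0.311 and 0.258 in 4E heavy, against 0.182, 0.176 and 0.203 in OA heavy, and overlapped in input. In the fraction where each was apart, the means of the arms differed by more than the SD within either group. The nearest libraries could be close, at 0.794 in 4E heavy and 0.737 in OA heavy for SMARCA2 per SMARCA4. OA replicate 1 did not stand apart from OA replicates 2 and 3 in the last 2 of these ratios in heavy RNA.

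Apart in the same sense were SMARCD1 per SMARCD2, lower in 4E input (ratio of means 0.707), CHD7 per CHD8, higher in 4E input (1.62), CHD1 per CHD2, lower in 4E heavy (0.620), HDAC7 per HDAC5, lower in 4E heavy (0.710), and KDM3B per KDM3A, higher in 4E input (1.74). Between fractions, KDM3B per KDM3A was higher in OA heavy than in OA input (1.53), SMARCD1 per SMARCD2 was higher in 4E heavy than in 4E input (1.80), and so was ARID1B per ARID1A (1.17). The other pairs overlapped in all 4 comparisons: ARID4A and ARID4B, CHD3 and CHD4, HDAC5 and HDAC4, KDM2B and KDM2A, KDM5B and KDM5A, and KDM6B and KDM6A.

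**Figure D4:**
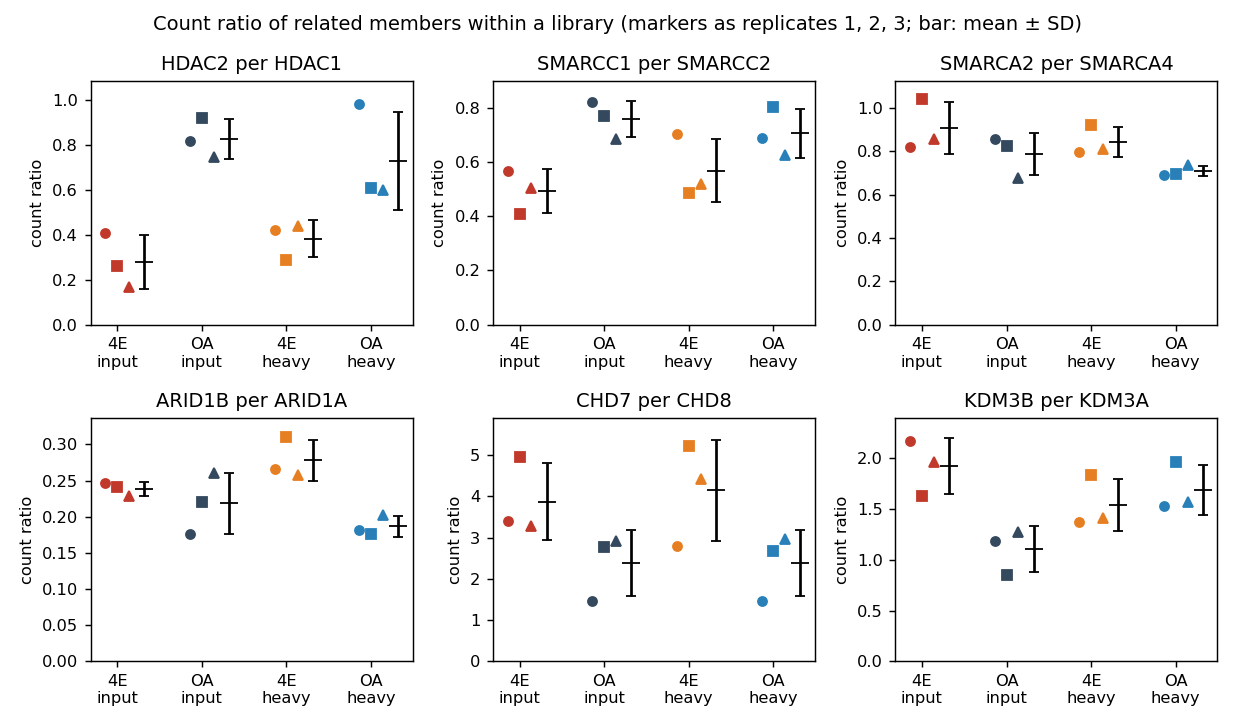
Count ratio of 6 pairs of related members in every library, without unit on a vertical axis that starts at 0, by group, with circle, square and triangle for replicates 1, 2 and 3 and a bar for the mean ± SD of 3 libraries. HDAC2 per HDAC1 is lower in 4E than in OA in both fractions; each of the other 5 pairs separates the arms in 1 fraction.

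Partners of these enzymes from 7 other lists of chromatin genes gave no called gene in any of the 5 contrasts in edgeR. The lists had 17 tested SWI/SNF partners, 25 NuRD and corepressor partners, 24 other remodellers, 4 sirtuins, 13 acetyltransferases, 29 methyltransferases and 8 other demethylases. At an unadjusted p under 0.05 the 4E minus OA contrast held 1 or 2 genes of each list in input, where it held 10.5% of all genes. In heavy RNA it held 6 methyltransferases, 2 genes of each of the SWI/SNF, NuRD and other remodeller lists, and 0 of the other lists. The share of all genes there was 8.21%. In 4E minus OA, 7 of 17 SWI/SNF partners were above 0 in input (median -0.04) and 8 in heavy RNA (median -0.02), and their difference from the SMARC genes was not tested. Of 25 NuRD and corepressor partners 16 were above 0 in input (median 0.10) and 14 in heavy RNA (median 0.09). Of 29 methyltransferases 15 were above 0 in input (median 0.01) and 17 in heavy RNA (median 0.09). Of 24 other remodellers 11 were above 0 in input (median -0.05) and 15 in heavy RNA (median 0.07). Of 13 acetyltransferases 5 were above 0 in input (median -0.04) and 6 in heavy RNA (median -0.12). Sirtuins numbered 1 of 4 above 0 in input and 3 in heavy RNA, and other demethylases 5 of 8 and 4. The genes named next had the smallest p of their lists, and all were lower in the contrast given, so they do not stand for their lists. RBBP7, a histone-binding subunit that works with HDAC1 and HDAC2, had 60.8, 52.3 and 53 CPM in 4E input, against 128, 124 and 80.2 CPM in OA input, which did not overlap (log2 change -1.01 ± 0.32, edgeR adjusted p = 0.353). EZH2, which writes the Polycomb mark that KDM6A and KDM6B erase and rises in dividing cells, had 23.65, 15.5 and 14.3 CPM in 4E heavy, against 59.4, 21.9 and 32.9 CPM in OA heavy (-1.10 ± 0.37, edgeR adjusted p = 0.569). HAT1, an acetyltransferase for new histones, had 15.2, 6.82 and 11 CPM in 4E input, against 28.5, 32.55 and 18.8 CPM in OA input (-1.27 ± 0.48, edgeR adjusted p = 0.392). SIRT1, ACTL6A and HELLS had log2 differences of -0.79 ± 0.36 and -1.58 ± 0.62 in input and -2.20 ± 0.72 in heavy RNA, with edgeR adjusted p of 0.464, 0.399 and 0.569. ACTL6A had 17.4, 6.82 and 2.21 CPM in 4E input (floor 6.52 to 6.82), against 21.8, 39.1 and 20.5 CPM in OA input. HELLS had 3.11, 2.49 and 2.69 CPM in 4E heavy (floor 1.87 to 2.69), against 15.9, 16.8 and 5.8 CPM in OA heavy. Some of these 4E values lay at or under the floor. UTY, the Y-linked relative of KDM6A, had 9.34, 11.2 and 10.75 CPM in 4E heavy, against 30.4, 27.3 and 30.9 CPM in 4E input (-1.50 ± 0.45, edgeR adjusted p = 0.276). Division markers were lower in 4E libraries as given above, and their part in these values was not tested.

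In the authors' deposited table, which compares the arms in the transcriptome and the translatome, all 63 members were listed and 0 had an adjusted p under 0.05 in either comparison, where 0 of all 11226 rows had one in the transcriptome and 10 in the translatome. The authors' deposited table gave 60 members no class, and classed HDAC2 and ARID3C as changed in transcription alone, and KDM4D as changed in translation alone. For HDAC2 the authors' deposited table gave log2 changes of -1.6 in the transcriptome (adjusted p = 0.541) and -0.62 in the translatome. ARID3C and KDM4D, at 2.76 in the transcriptome and 2.6 in the translatome in the authors' deposited table, rest on 24 and 13 counts over the 12 libraries. The sign in the authors' deposited table was the same as in edgeR for 52 of 55 tested members in input and for 55 in heavy RNA.

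No sequence was measured here, and promoters are shown only to place members of opposite lean side by side. RefSeq promoter windows of GRCm38.p6, from 250 bases before to 50 bases after the start, matched 46 of the 63 members by symbol. The stretches below, of 150 bases before the start on the + strand, belong to SMARCA2, at chr19:26605010-26605159, and HDAC2, at chr10:36974394-36974543. Capitals mark CG pairs, of which there are 17 and 18.
Smarca2: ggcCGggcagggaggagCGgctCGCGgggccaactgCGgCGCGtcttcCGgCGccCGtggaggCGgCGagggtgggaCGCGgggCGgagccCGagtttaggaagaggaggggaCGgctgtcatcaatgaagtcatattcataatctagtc
Hdac2: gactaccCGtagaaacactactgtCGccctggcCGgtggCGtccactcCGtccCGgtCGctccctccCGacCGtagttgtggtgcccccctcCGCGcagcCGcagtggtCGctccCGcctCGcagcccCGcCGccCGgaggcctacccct
Both are rich in CG, as are the promoters of most genes tested. The median GC content was 61.2% in the 46 member windows and 62.3% in 5484 windows of genes tested. The motif GGGCGG, searched on both strands, was in 34 of 46 member windows (73.9%) and in 70% of those of genes tested, and CACGTG was in 2 (4.35%) and 11.2%. A match is a description of letters and draws nothing about a factor.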

How the data were processed

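RNA of sorted CD4+ T cells was sequenced as input and as heavy polysome RNA. The authors deposited 1 table of read counts per gene symbol; the values are whole, differ in total between libraries, and were handled as raw counts, and 0 columns belonged to other samples. Per the labels' protocols, RNA was polyA-selected and the preparation was stranded; per the submitters' processing notes, Bowtie and the build mm9 are named without a version or a role, and for the counting and its annotation the sources used here give no tool. The authors also deposited a table of log2 fold changes with p-values and adjusted p-values of their own comparison, which entered no test. Gene symbols of these mouse samples are written as for human genes; 62 of 63 members match a GENCODE mouse symbol when case is ignored, and 28 rows of the table had symbols turned into dates and are not named.

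Reads in no gene or ambiguous, 16.4% to 31.4% of a library, were left out. The 7465 genes that reached 10 counts in 3 or more libraries were fitted in 1 model of 4 group means. The fit used edgeR 4.0.16 in R 4.3.3 (TMM factors 0.409 to 2.05, quasi-likelihood test, Benjamini-Hochberg adjustment over all 7465, threshold 0.05). The SE of a change was derived from that test, as its absolute value divided by the square root of the F statistic. DESeq2 1.42.0, other scalings and filters, blocks and left-out libraries were alternatives. Scripts were tested on simulated data. Members and lists were chosen with earlier results of these data known. Values in every library are given for the 2 members of each family with most counts, for the 3 with the smallest p in each contrast, and for some others chosen after their values were seen. Replicate numbers were taken to pair libraries where every same-numbered pair's deviations from the group means correlated above 0.1: OA heavy and OA input (0.669, 0.138 and 0.312) did, and no other pair of groups compared did. Unlike numbers also passed 0.1, with 0.227 for OA input replicate 2 and OA heavy replicate 3. OA input replicate 3 and OA heavy replicate 2 gave 0.163. The rule therefore does not establish a pairing of replicates 2 and 3.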

Additional observations from a re-analysis of the deposited data

How the results depend on the processing

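Over the alternatives, the count of called members stayed at 0 in all 5 contrasts, with each library left out in turn (0 to 0) and under both fits with a replicate block, except that without composition scaling edgeR called 54 members in heavy minus input of the 4E arm and 41 in the OA arm. All 54 and 41 were called as higher in heavy RNA, in a setting that moved the median of all genes by 1.93 and 1.24 in these contrasts and called 6035 and 3054 of all genes. Relative to that shift, which leaves values with no test of their own, KDM7A stood at -0.44 and SMARCE1 at -0.53 in the 4E arm, and ARID4B at -0.34 and SMARCC1 at -0.28 in the OA arm. Of 1080 refitted changes of the named members, 12 changed sign, with those without composition scaling judged relative to the shift of all genes. As fitted without composition scaling, 1 of 55 members was above 0 in 4E minus OA in input and 25 were in heavy RNA. SMARCA2 then stood at -0.04 and KDM6B at -0.08 in input. Without composition scaling HDAC4 in input was -0.86 as fitted and 0.02 relative to the shift of all genes. It ranged from -0.41 to 0.38 with 1 library left out (0.18 without 4E input replicate 1). With 1 library left out SMARCA5 ranged from -0.28 to 0.05 in input and from -0.15 to 0.15 in heavy RNA, and CHD4 from -0.05 to 0.24 in heavy RNA. When OA replicate 1 was left out of both fractions, SMARCA5 stood at 0.05 in input and 0.14 in heavy RNA, and CHD4 at -0.07 in heavy RNA. SMARCA5 in heavy RNA became 0.01 under the replicate block. The cause was not tested. With the replicate number as a block between arms, which the libraries' correlations do not bear out as a pairing, 12 members in input (13.7% of all genes) and 11 in heavy RNA (14.2%) had an unadjusted p under 0.05 and 0 were called. The blocked fits changed no call of a member. HDAC2, HDAC10 and ARID3B are limited by depth, with single-digit counts in some libraries, as are other members such as HDAC6, HDAC9, SMARCAL1 and KDM1B.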
